A study of Homo sapiens with 48 samples.

Results

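The chemokine cluster examined here held 6 genes, CXCL8, CXCL6, CXCL1, CXCL5, CXCL3 and CXCL2, out of 20033 protein-coding genes in the GENCODE 44 annotation. Every peak on chromosome 4 from 50 kb before CXCL8 to 50 kb after CXCL2 was taken from all 16 deposited peak lists (hg38 chr4:73690519-74149196, 459 kb). The window was thus set by position, and the rule for it uses no measured value. The 6 members are a named choice, made with earlier results of these data known. It leaves out the chemokine genes PF4, PF4V1 and PPBP, which lie between CXCL8 and CXCL2. From left to right the genes are CXCL8 (chr4:73740519-73743716), CXCL6 (chr4:73836640-73849064) and CXCL1 (chr4:73869393-73871308) on the plus strand, then CXCL5 (chr4:73995642-73998677), CXCL3 (chr4:74036589-74038807) and CXCL2 (chr4:74097040-74099196) on the minus strand.

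The lists came from ChIP-seq of L3.6pl, an established human pancreatic ductal adenocarcinoma (PDAC) cell line, treated with PBS as vehicle, or with 10 ng/ml TNFα or 10 ng/ml TWEAK for 30 min or 6 h. Chromatin was precipitated for the NF-κB subunits RELA and RELB and for acetylated lysine 27 of histone H3 (H3K27ac), an active promoter and enhancer mark, in all 5 treatments. Chromatin for FOSL1, a subunit of the AP-1 transcription factor, was taken from vehicle cells alone. The 48 samples formed 16 conditions of 3 replicates with 1 peak list per condition, so no value below has a replicate error, no test between conditions was possible, and the depth behind the lists is unknown. For RELA at TNFα 30 min, the peak names mention replicate 1 as well as a merge, so it is not settled how many replicates that list holds. The vehicle H3K27ac list had a peak at the promoters of 5 of 5 epithelial markers (KRT8, KRT18, KRT19, EPCAM and CDH1), against 66.8% of all protein-coding genes. It also had one at 1 of 4 leukocyte markers (CD3E), 1 of 3 fibroblast markers (COL1A1) and 2 of 2 endothelial markers (PECAM1 and VWF). These few counts therefore say little about cell identity.

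The 6 genes encode CXC chemokines that carry a glutamate-leucine-arginine motif and act through the receptors CXCR1 and CXCR2, above all on neutrophils. PPBP, a platelet chemokine gene inside the window, encodes another chemokine with this motif that acts through CXCR2, and it is not among the members. CXCL8 is interleukin 8, and CXCL1, CXCL2 and CXCL3 are the GRO chemokines, with CXCL5 and CXCL6 as a further closely related pair. In the canonical NF-κB pathway, TNFα releases RELA dimers into the nucleus within minutes, whereas TWEAK is best known for the slower noncanonical pathway through RELB. The CXCL8 promoter, with an NF-κB element beside an AP-1 element, is a textbook example of an NF-κB target.

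All 6 promoters carried the same 9-base NF-κB element, GGAATTTCC, on the strand of the gene. It is shown here with its flanks, in capitals, 5′ to 3′ on the gene's strand (hg38), because one of the 6 promoters had it and no RELA peak.
CXCL8: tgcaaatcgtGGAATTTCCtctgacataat
CXCL6: ctgagttcagGGAATTTCCccagcatccca
CXCL1: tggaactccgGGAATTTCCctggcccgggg
CXCL5: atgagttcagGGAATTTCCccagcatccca
CXCL3: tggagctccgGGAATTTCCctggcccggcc
CXCL2: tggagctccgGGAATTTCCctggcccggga
These stretches lie at chr4:73740468-73740497, chr4:73836579-73836608, chr4:73869305-73869334, chr4:73998748-73998777, chr4:74038748-74038777 and chr4:74099253-74099282, with CXCL8, CXCL6 and CXCL1 on the plus strand and the others on the minus strand. The CXCL3 stretch also lies in an exon of an alternative CXCL3 transcript. In the 300-base promoters of RefSeq (GRCh38.p14, from 250 bases before to 50 after the start), the element began 91, 89, 78, 90, 78 and 77 bases upstream of the start of CXCL8, CXCL6, CXCL1, CXCL5, CXCL3 and CXCL2. Of the 35116 RefSeq promoters, 0.461% held GGAATTTCC on either strand. The longer NF-κB consensus, which overlaps it, was found in 5 of the 6 promoters, all but that of CXCL8, against 11.3% of all promoters. TGANTCA, the AP-1 element, was found in the CXCL8 promoter alone of the 6, against 7.71% of all promoters.

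The CXCL8 stretch below runs from 50 bases before the RELA summit of TNFα 30 min to the last base before the first annotated start (chr4:73740416-73740518, plus strand), with the AP-1 and NF-κB elements in capitals.
CXCL8 promoter: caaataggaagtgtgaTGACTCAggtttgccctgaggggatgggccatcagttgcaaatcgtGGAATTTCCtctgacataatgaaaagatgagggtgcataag

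The promoters fell into related groups. CXCL5 and CXCL6 were identical at 251 of 302 aligned positions (83.1%), and CXCL1 and CXCL3 at 254 of 308 (82.5%), with CXCL2 at 73.8% to CXCL3 and 72.1% to CXCL1. The CXCL8 promoter stood apart, with 42.6% to 44.9% identity to the others. Of the 251 words of 50 bases in each promoter, 0 occurred more than once in the genome for any of the 6 genes, so a read of that length has 1 exact place among these copies.

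RELA was called at a single site of the cluster in vehicle and at 13 sites within 30 min of TNFα addition. Within the window the RELA lists held 1 peak in vehicle, 13 at TNFα 30 min, 9 at TNFα 6 h, 4 at TWEAK 30 min and 1 at TWEAK 6 h. At the density of each list over the genome, a stretch of this length would hold 0.446, 1.67, 1.08, 0.415 and 0.546 peaks. Peaks were counted as single-copy if at most 50% of their 50-base words occurred more than once in the genome, which held for 14.8%, 71.1%, 49.0%, 24.6% and 12.8% of the 5 lists. For single-copy peaks the genome densities were 0.0661, 1.19, 0.531, 0.102 and 0.0698 per window. Every RELA peak in the cluster was single-copy by this measure. The 28 peaks of the 5 lists all fell on the 13 sites of TNFα 30 min, with summits at most 76 bp from those of that list.

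**Figure D1:**
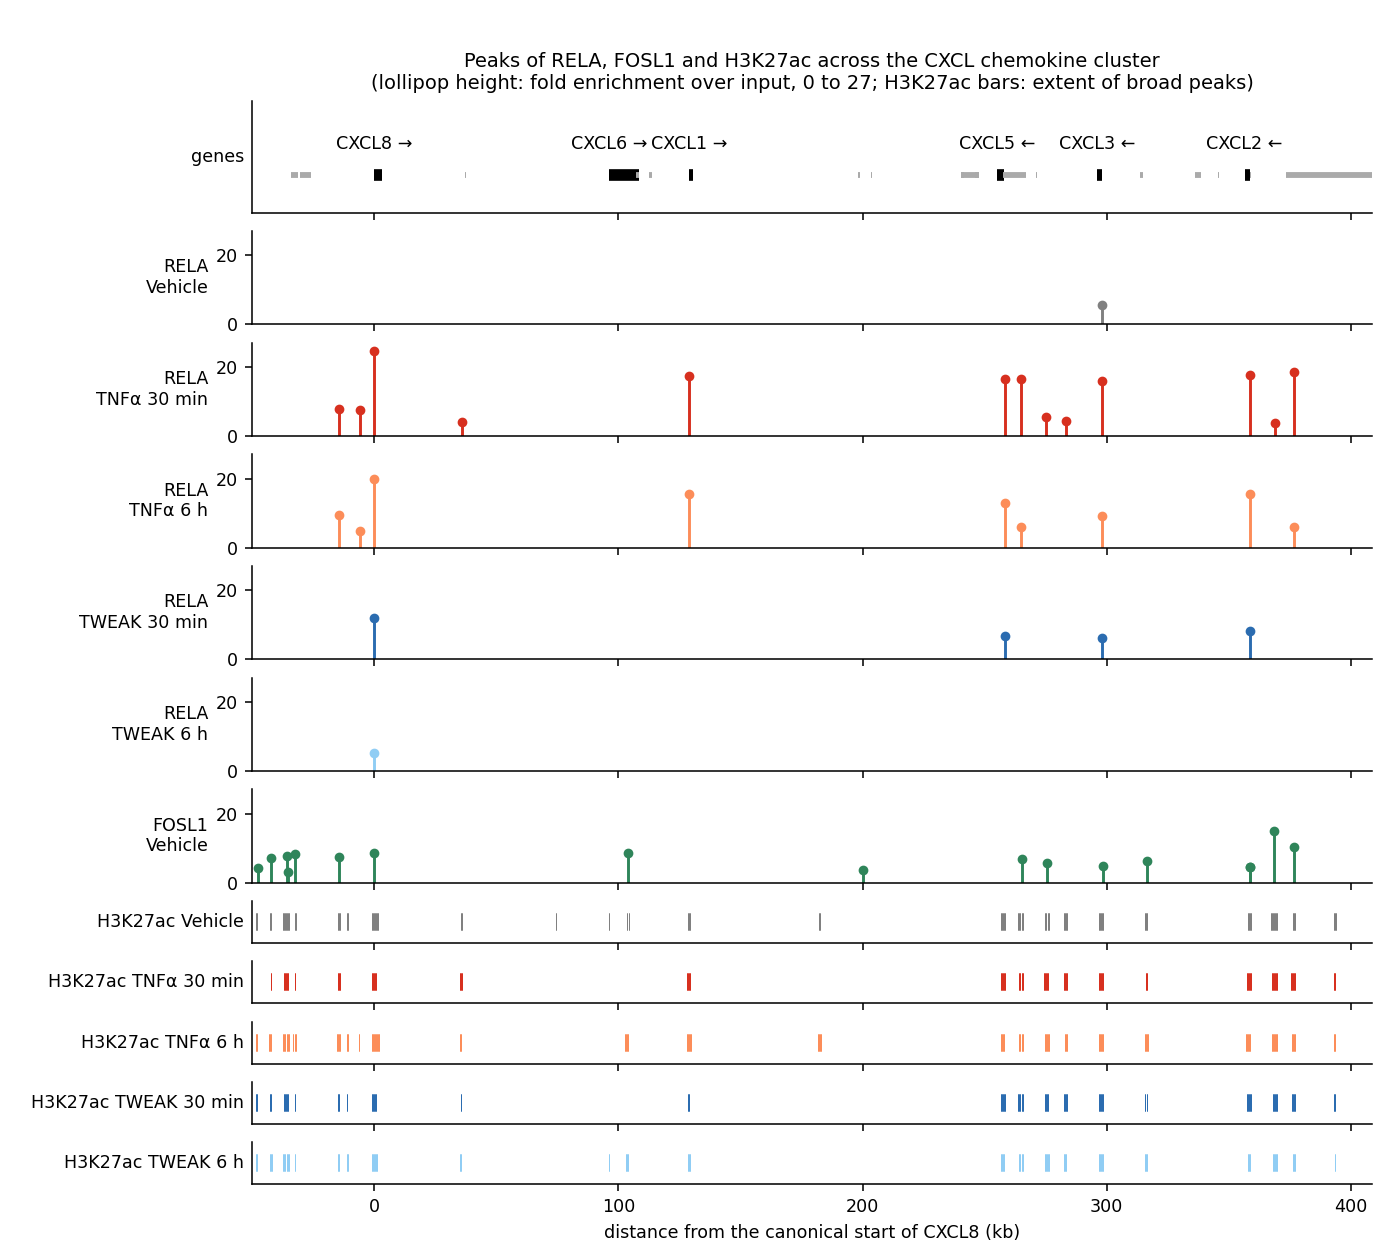
Peaks across the cluster, with distance from the CXCL8 start in kb on the horizontal axis, member genes in black and other genes in grey. Lollipops give the fold enrichment of RELA and FOSL1 peaks and bars the extent of H3K27ac peaks. The 13 RELA peaks of TNFα 30 min include 5 at member promoters, while the vehicle and 6 h TWEAK lists have 1 each.

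At the promoters, defined as 1000 bp on either side of any annotated start, RELA was called at 5 of the 6 members after TNFα, at both times. Fold enrichment is the authors' ratio of ChIP over input at a peak, and over all protein-coding genes 11.5% had a RELA promoter peak at TNFα 30 min and 4.92% at 6 h. For the other lists the members numbered 1 in vehicle (0.574% of all genes), 4 at TWEAK 30 min (1.22%) and 1 at TWEAK 6 h (0.549%).

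The CXCL8 promoter had a fold enrichment of 24.5 at TNFα 30 min, 20.0 at TNFα 6 h, 12.1 at TWEAK 30 min and 5.33 at TWEAK 6 h, with no peak in vehicle. It was the strongest RELA site of the cluster in each of these 4 lists and the only one found after TWEAK 6 h. Its rank was 9 of the 8006 single-copy peaks at TNFα 30 min and 22 of 3573 at 6 h, against 66 of 686 and 295 of 470 after TWEAK. The peak at TNFα 30 min spanned chr4:73740312-73740647, and its summit lay 103 bp upstream of the canonical start and 16 bp from the centre of the GGAATTTCC element shown above.

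CXCL2, a GRO chemokine made early in inflammation, had 17.6 at TNFα 30 min, 15.6 at TNFα 6 h and 8.09 at TWEAK 30 min. Its peak at TNFα 30 min spanned chr4:74099004-74099437, with the summit 74 bp upstream of the canonical start and 1 bp from the centre of the element. CXCL1, its close relative, had 17.3 and 15.5 after 30 min and 6 h TNFα treatment and no peak after TWEAK at either time. Its peak at TNFα 30 min spanned chr4:73869165-73869544, with the summit 89 bp upstream of the start. CXCL1 was thus the one RELA-bound member promoter that the 30 min TWEAK list left out, although its TNFα fold enrichment was close to that of CXCL2.

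CXCL5, another CXCR2 ligand, had 16.6 at TNFα 30 min, 13.0 at TNFα 6 h and 6.69 at TWEAK 30 min. Its peak at TNFα 30 min (chr4:73998576-73998935, summit 80 bp upstream) also lies over an exon of the long non-coding RNA ENSG00000287037, on the opposite strand. CXCL3, the third GRO chemokine, had 5.51 in vehicle, 15.9 at TNFα 30 min, 9.24 at TNFα 6 h and 6.18 at TWEAK 30 min. At TNFα 30 min the CXCL3 peak (chr4:74038480-74038942) had its summit 51 bp upstream of the canonical start, within the first exon of an alternative transcript. The vehicle peak at CXCL3 was 111 bp long with a −log10 q of 5.23, and it was the only RELA peak of the cluster without added ligand. Part of the CXCL3 peak is shared sequence: 18.1% of its words at TNFα 30 min occurred more than once, against 15.6% for CXCL2 and 0 for CXCL8, CXCL1 and CXCL5.

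CXCL6, a further CXCR1 and CXCR2 ligand and the nearest relative of CXCL5, had no RELA peak in any of the 5 lists. Its promoter carries the same element within an almost identical stretch of 30 bases. Of the 251 words of its promoter 0 were repeated, but how the authors treated reads with several matches is not given, and the part of read placement in the absent peak was not tested.

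**Figure D2:**
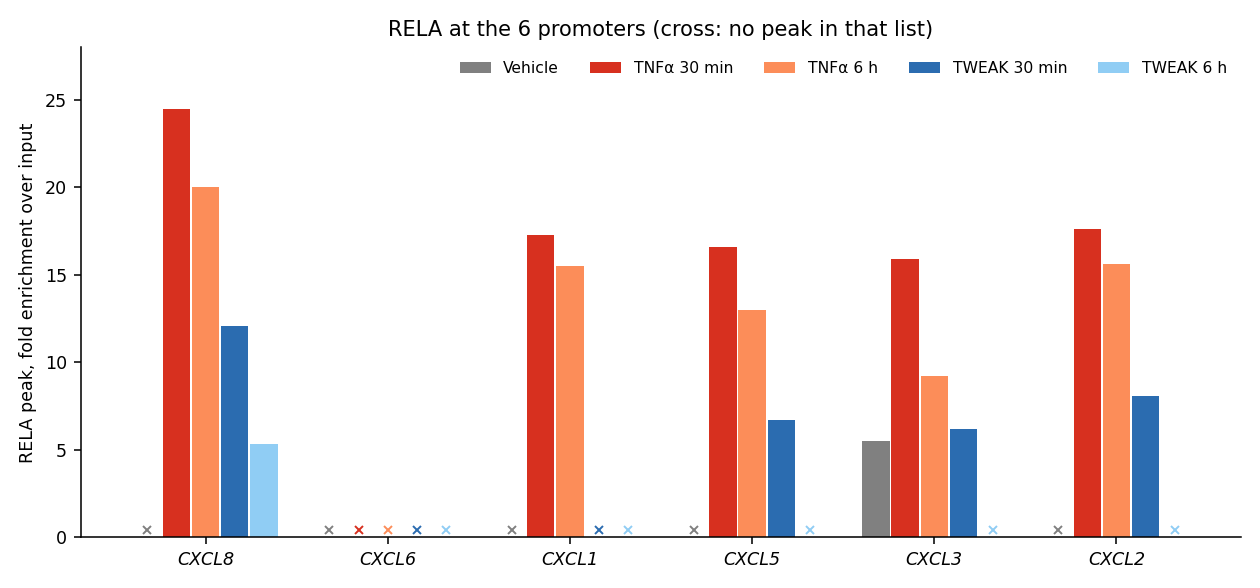
RELA fold enrichment at the promoters of the 6 members (vertical axis) in the 5 treatments (bars), with a cross where a list has no peak and 1 list per bar. CXCL8 is highest in 4 lists, CXCL3 has the only vehicle bar (5.51), and CXCL6 has none.

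The other 8 of the 13 sites lay away from the member promoters, 6 between genes and 2 within genes. Of all RELA peaks at TNFα 30 min, 19.6% lay within 1000 bp of a protein-coding start, against 5 of 13 here. Fold enrichment at TNFα 30 min was at least 15.9 at 7 sites and at most 7.74 at the other 6, and 4.27% of the whole list reached 15. The strong group held the 5 promoters and 2 distal sites.

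Distal sites are named by the nearest member, which does not assign them to that gene. The strongest distal site, with 18.4, lay 17.9 kb upstream of CXCL2 in an intron of MTHFD2L, a mitochondrial folate enzyme gene, and it exceeded every promoter but that of CXCL8. The start of MTHFD2L (chr4:74114174) lies between CXCL2 and this site and is thus nearer to it. The next strongest, with 16.5, lay 6.92 kb upstream of CXCL5 in an intron of ENSG00000287037. CXCL8 had 2 intergenic sites upstream, one with 7.74 at 14.4 kb and one with 7.47 at 5.78 kb, and a weak one with 4.21 at 35.8 kb downstream. The weak sites near the other members had 5.57 at 17.0 kb upstream of CXCL5, 4.37 at 14.7 kb downstream of CXCL3 and 3.73 at 10.5 kb upstream of CXCL2.

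The 3 strongest distal sites are shown from 50 bases before to 50 after the RELA summit on the plus strand (chr4:74117065-74117165, chr4:74005547-74005647 and chr4:73726106-73726206), to set their elements beside those of the promoters, with NF-κB matches in capitals.
CXCL2 upstream site: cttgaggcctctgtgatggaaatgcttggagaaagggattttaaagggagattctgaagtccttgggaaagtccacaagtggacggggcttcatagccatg
CXCL5 upstream site: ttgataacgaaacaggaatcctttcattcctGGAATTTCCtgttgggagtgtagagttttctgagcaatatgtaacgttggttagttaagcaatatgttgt
CXCL8 upstream site: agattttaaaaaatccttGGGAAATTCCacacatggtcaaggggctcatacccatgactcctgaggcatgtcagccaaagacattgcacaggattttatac
The CXCL5 upstream site held the same 9 bases as the promoters, and the CXCL8 upstream site held them on the opposite strand. The CXCL2 upstream site, although the strongest of the 3, held neither NF-κB form, which says only that these letters are not in this window.

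Within 100 bp of the summit, GGAATTTCC was found at 8 of the 13 sites, against 10.2% of all RELA peaks at TNFα 30 min. These were the 5 promoters and 3 distal sites, the CXCL5 upstream site and the 2 upstream of CXCL8. The NF-κB consensus was found at 6 sites, against 37.5% of all peaks, and 9 sites held one or the other. TGANTCA was found at 3 sites (14.4% of all peaks), namely the CXCL8 promoter, the site 14.4 kb upstream of it and the strongest distal site near CXCL2. FOSL1 was called at all 3.

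From 30 min to 6 h after TNFα, 9 of the 13 sites remained in the RELA list, against 45.2% of all peaks of 30 min and 36.1% of the single-copy ones. These shares are not matched for strength, since 7 of the 13 sites had at least 15 at 30 min. The single-copy peaks at that level were 119 at promoters and 293 away from them, and 394 were also in the 6 h list. The 4 sites not in the 6 h list were the 4 weakest, from 3.73 to 5.57 at 30 min. All 5 promoters remained, with a ratio of the 6 h to the 30 min fold enrichment of 0.582 at CXCL3, 0.782 at CXCL5, 0.816 at CXCL8, 0.889 at CXCL2 and 0.898 at CXCL1. The 2 strong distal sites had lower ratios than any promoter, going from 18.4 to 5.91 (0.321) upstream of CXCL2 and from 16.5 to 6.04 (0.366) upstream of CXCL5. The site 14.4 kb upstream of CXCL8 went the other way, from 7.74 to 9.42 (1.22), while its neighbour at 5.78 kb went from 7.47 to 4.93 (0.660).

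The median ratio over the 9 sites was 0.782, beside 0.931 over all 5093 shared peaks and 0.795 over the 2861 shared single-copy peaks, so the cluster as a whole was near the single-copy peaks of the genome. Among 394 single-copy peaks with at least 15 at 30 min, the median was 0.730, with quartiles of 0.548 and 0.857 and the 5th percentile at 0.349. The CXCL2 upstream site was below that 5th percentile, the CXCL5 upstream site just above it, and the CXCL1 and CXCL2 promoters were above the upper quartile. Fold enrichment depends on each list's depth and background, which are unknown.

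**Figure D3:**
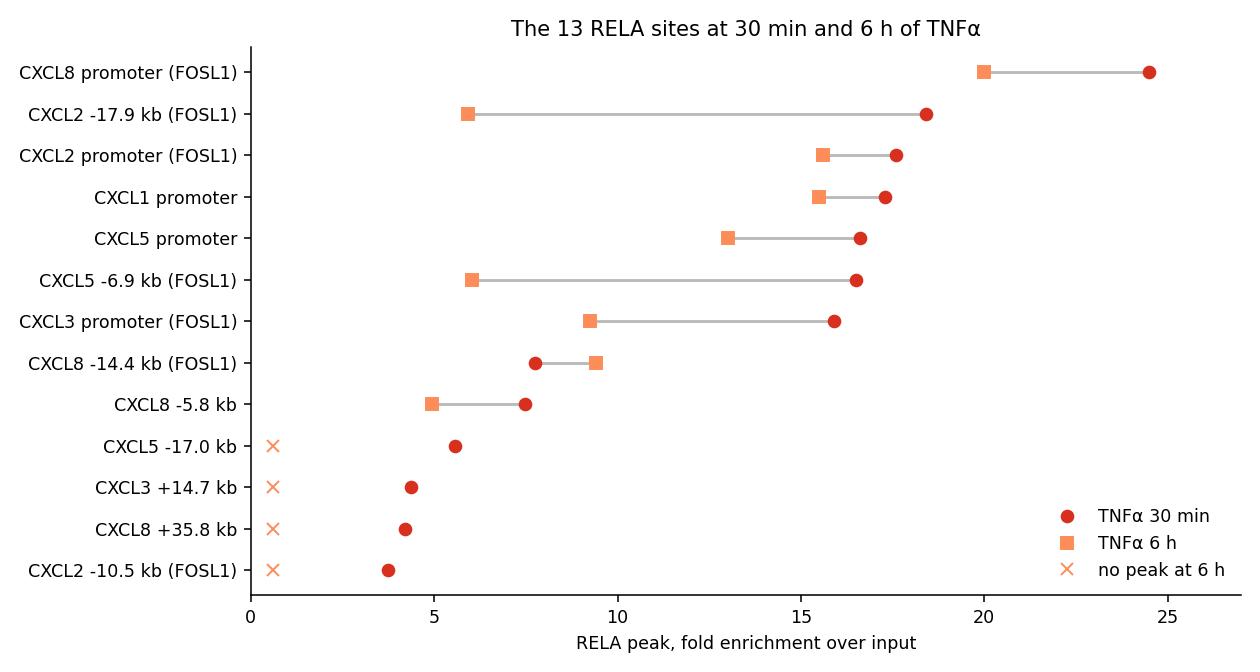
RELA fold enrichment (horizontal axis) at the 13 sites at 30 min (circles) and 6 h (squares) of TNFα, ordered by the 30 min value, with crosses for no peak at 6 h and names giving the distance to the nearest member. The promoters change less than the 2 strong distal sites, which go from 18.4 to 5.91 and from 16.5 to 6.04.

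TWEAK at 30 min reached promoters alone in this cluster. Of the 13 sites, 4 were in that list, the promoters of CXCL8, CXCL2, CXCL5 and CXCL3, against 20.1% of all RELA peaks of TNFα 30 min and 8.14% of the single-copy ones. None of the 8 distal sites was called. For peaks of at least 15 at TNFα 30 min, 73.1% of the single-copy ones at promoters and 65.5% of those away from promoters were in the 30 min TWEAK list, against 4 of 5 and 0 of 2 here. The ratio of the TWEAK to the TNFα fold enrichment at 30 min was 0.496 at CXCL8, 0.460 at CXCL2, 0.403 at CXCL5 and 0.389 at CXCL3, with a median of 0.488 over the 279 shared single-copy peaks of at least 15. At TWEAK 6 h the CXCL8 promoter was the only site left, with a ratio of 0.218, against 21.0% of all peaks and 4.86% of the single-copy ones that were found in that list. For vehicle, where CXCL3 had the only site, the shares were 19.3% and 4.82%.

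RELB had no peak in the window in any of its 5 lists, at promoters or elsewhere. The nearest RELB peak on chromosome 4 lay 397 kb from the window at TWEAK 6 h and at least 5502 kb away in the other 4 lists. Of all protein-coding genes, 0.270%, 0.110%, 0.354%, 0.0599% and 1.84% had a RELB promoter peak in vehicle, TNFα 30 min, TNFα 6 h, TWEAK 30 min and TWEAK 6 h, and the 6 members had 0 in each. At the genome density of its lists, a window of this length would hold 0.359 to 0.609 RELB peaks. Counting single-copy peaks alone, it would hold 0.0217 to 0.241. Thus 0 in a single list is not unusual for a window of this length. Of all RELA peaks at TNFα 30 min, 34.0% overlapped a peak of some RELB list and 27.3% one of the 6 h TWEAK list, or 16.3% of the single-copy peaks, against 0 of the 13 sites. RELA and RELB were precipitated with different antibodies, so their lists are not on a common scale.

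FOSL1, measured without added ligand, had 17 peaks in the window, where its genome density gives 8.74. It was called at the promoters of 3 of the 6 members, against 50.8% of all genes, with 8.63 at CXCL8, 4.87 at CXCL3 and 4.63 at CXCL2. CXCL8 was the strongest of these, and its FOSL1 summit lay 14 bp from the RELA summit, whereas the distances were 146 bp at CXCL3 and 105 bp at CXCL2. CXCL1, CXCL5 and CXCL6 had no FOSL1 promoter peak.

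FOSL1 overlapped 7 of the 13 RELA sites, against 58.0% of all RELA peaks at TNFα 30 min and 48.8% of the single-copy ones. Besides the 3 promoters these were 4 distal sites, with 15.0 and 10.4 at the sites 10.5 and 17.9 kb upstream of CXCL2, 7.30 at 14.4 kb upstream of CXCL8 and 6.80 at 6.92 kb upstream of CXCL5. The strongest FOSL1 peak of the cluster thus lay at the weakest RELA site (3.73), with summits 416 bp apart. The other 9 FOSL1 peaks overlapped no RELA peak, had 3.10 to 8.51, and 5 of them lay 32.5 to 47.6 kb upstream of CXCL8.

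H3K27ac was present at the chemokine promoters before any ligand was added. In vehicle all 6 promoters had a peak, against 66.8% of all genes. At TNFα 30 min 5 had one (64.9%), at TNFα 6 h 5 (66.6%), at TWEAK 30 min 5 (65.5%) and at TWEAK 6 h 6 (66.3%), the difference being CXCL6 each time. CXCL6 had short peaks of 563 bp in vehicle (2.63) and 460 bp at TWEAK 6 h (2.74), both near the threshold, with −log10 q of 1.98 and 1.42.

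At the 5 RELA-bound promoters, the H3K27ac fold enrichment of the strongest peak stayed between 2.29 and 4.46. MACS2 averages this value over the whole called peak in broad lists. A second peak at the CXCL8 promoter at TNFα 6 h had 2.15. At TNFα 30 min fold enrichment and peak length moved in opposite directions from vehicle at all 5. CXCL8 had a higher fold enrichment over a shorter peak (2652 bp in vehicle and 2134 bp at TNFα 30 min), and the other 4 had a lower fold enrichment over a longer one. CXCL8 had 2.44 in vehicle, 3.36 and 2.29 after TNFα, and 3.19 and 2.63 after 30 min and 6 h TWEAK treatment. CXCL2 had 4.15 in vehicle, 3.29 and 3.33 after TNFα, and 3.92 and 4.46 after TWEAK. CXCL8 was thus lowest in vehicle among the 5 and CXCL2 highest, while at TNFα 30 min they lay side by side.

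Of the remaining 3, CXCL1 had 3.06 in vehicle, 3.01 and 2.63 after TNFα and 3.72 and 3.46 after TWEAK. CXCL5 stayed between 3.19 and 3.63, and CXCL3 between 3.49 and 4.02. The peak lengthened from 1872 to 2137 bp at CXCL5, from 1887 to 2129 bp at CXCL3 and from 1841 to 2261 bp at CXCL2 between vehicle and TNFα 30 min. At CXCL1 it was 1588 bp in vehicle, 1887 and 2349 bp after 30 min and 6 h TNFα treatment, and 1047 and 1460 bp after TWEAK, the longest and the shortest after the 2 ligands.

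**Figure D4:**
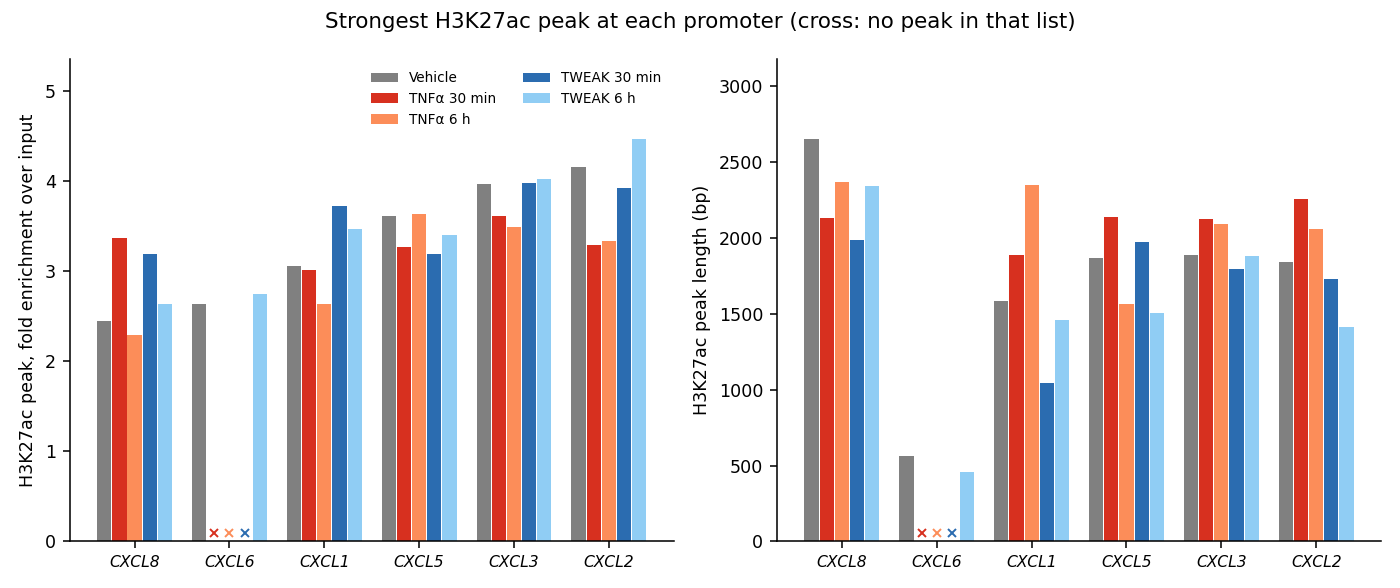
H3K27ac at the 6 promoters, with fold enrichment of the strongest peak on the left and its length in bp on the right, by treatment (bars), and a cross where a list has no peak. Fold enrichment lies between 2.29 and 4.46 in every list, and CXCL6 has short peaks in vehicle and at TWEAK 6 h alone.

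Most RELA sites lay in chromatin already acetylated in vehicle. An H3K27ac peak lay within 500 bp of the RELA summit at 12 of the 13 sites in vehicle (60.1% of all RELA peaks), 12 at TNFα 30 min (71.2%), 13 at TNFα 6 h (67.1%), 12 at TWEAK 30 min (63.3%) and 12 at TWEAK 6 h (60.5%). The one site without it was that 5.78 kb upstream of CXCL8, where a peak of 449 bp with 1.80 was called at TNFα 6 h and in no other list. At the CXCL5 upstream site the mark flanked the RELA summit on both sides in all 5 lists and left the summit itself uncovered. Such a gap was also found at the CXCL8 promoter at TNFα 6 h and at the site 14.4 kb upstream of CXCL8 at TNFα 30 min, although both summits were covered in vehicle.

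The number of bases under H3K27ac peaks within 2000 bp of the summit, a measure chosen after the lists had been seen, was higher than in vehicle at 8 of the 13 sites at TNFα 30 min (44.7% of all RELA peaks) and 10 at 6 h (45.5%). It was lower at 4 sites at TNFα 30 min (32.2% of all RELA peaks) and 3 at 6 h (28.1%). After TWEAK it was higher at 3 sites at 30 min (32.7%) and 2 at 6 h (20.7%). It was lower at 9 sites at TWEAK 30 min (38.7%) and 10 at 6 h (48.8%). Peaks in neither share had equal counts, including any with no H3K27ac peak within 2000 bp in either list. The shares are thus not matched for acetylation in vehicle, found near 12 of the 13 sites and 60.1% of all RELA peaks. Summed over the sites, the bases under H3K27ac peaks were 21388 in vehicle, 22554 and 23306 after 30 min and 6 h TNFα treatment, and 19272 and 18644 after 30 min and 6 h TWEAK treatment. Relative to vehicle these sums were 1.05 and 1.09 after TNFα and 0.901 and 0.872 after TWEAK, beside 1.10 and 1.10, and 0.986 and 0.911, for the same sums over all RELA peaks at TNFα 30 min, so the summed gain after TNFα was no larger than genome-wide. The largest gain at TNFα 30 min was at the CXCL2 upstream site, from 1156 to 1871 bases.

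Across the window, H3K27ac peaks of the 5 lists merged into 27 domains, 14 of them within 500 bp of a RELA site, and this split too was made after the lists had been seen. Of the 13 with RELA that were called both in vehicle and at TNFα 30 min, 9 were longer at 30 min, against 50.0% of such domains genome-wide. All 13 domains without RELA were shorter or not called at TNFα 30 min, against 82.3% genome-wide, and their bases went from 11615 in 13 domains to 4864 in 5. Domains with RELA had to be called in both lists, and those without in vehicle alone. The shares with and without RELA are therefore not comparable with each other. At TNFα 6 h 10 of 13 domains with RELA were longer (58.3% genome-wide) and 8 of 13 without RELA were shorter or not called (61.6%), and the latter were back at 11515 bases in 11 domains. After TWEAK the domains without RELA also held fewer bases than in vehicle. They had 6298 bases in 7 domains at TWEAK 30 min and 8785 in 12 at TWEAK 6 h. A drop at 30 min was thus found after both ligands. The whole H3K27ac list also covered less of the genome at TNFα 30 min (1.46%) and TWEAK 30 min (1.52%) than in vehicle (1.80%). The part of that in the losses was not tested.

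**Figure D5:**
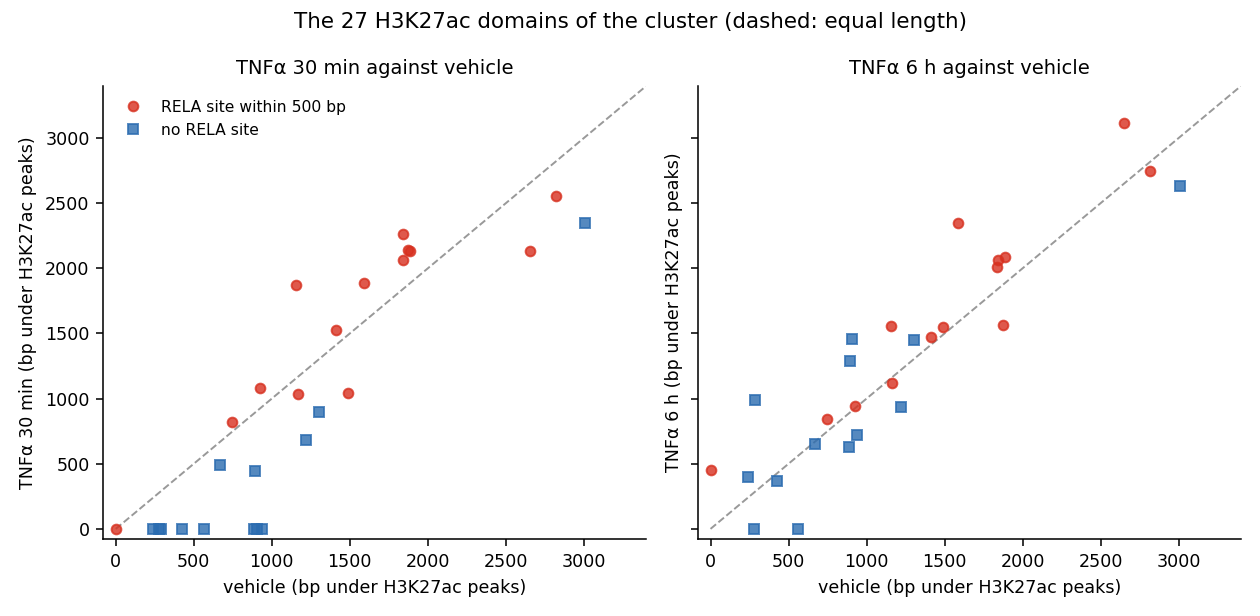
Bases under H3K27ac peaks in each of the 27 domains, in vehicle (horizontal axis) and at 30 min (left) or 6 h (right) of TNFα (vertical axis), with circles for domains within 500 bp of a RELA site and squares for the others. At 30 min all 13 squares lie below the dashed line of equal length, 8 of them at 0, while 9 circles lie above it.

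Genes related to the members were taken as whole lists, whatever their values. Of 11 other CXC chemokines, RELA was at the promoters of 3 at TNFα 30 min (11.5% of all genes) and 2 at 6 h (4.92%). These were CXCL10 (14.2 and 10.3) and CXCL11 (6.78 and 6.43), ligands of CXCR3 on T cells, and CXCL16 (5.66 at 30 min alone). PF4, PF4V1 and PPBP, the platelet chemokines inside the window, had no peak of RELA, RELB, FOSL1 or H3K27ac at their promoters in any list. The receptors CXCR1, CXCR2 and ACKR1 likewise had none. Of 6 other regulators of neutrophils, RELA was at 3 at TNFα 30 min (11.5% of all genes), namely CSF3 (4.65), IL1B (5.31) and NFKBIZ (21.5), and at 2 at 6 h (4.92%), namely NFKBIZ and CSF2 (5.05), a growth factor of myeloid cells that had no RELA peak at 30 min. NFKBIZ, an inducible nuclear IκB protein, also had RELA in the other 4 lists (5.81 in vehicle, 14.7 at TNFα 6 h, 12.3 and 6.15 after TWEAK), and no other gene of these lists exceeded a member promoter of the RELA-bound 5 at TNFα 30 min.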

How the data were processed

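Reads were aligned by the authors with Bowtie2 2.5.0 (hg38), and MACS2 peak calling used input chromatin as background, giving 1 list per condition, as 11 narrow lists and 5 broad H3K27ac lists. The deposited fold enrichment is the authors' ratio of ChIP over input, and the deposited −log10 q is the authors' significance of a peak, both averaged over the peak in broad lists. The MACS2 version, a blacklist and the treatment of multiply mapped reads are not given in the sources used here. Unplaced sequences and the mitochondrial genome were left out, and any shared base counted as overlap. Overlaps, motif matches on both strands and repeated 50-base words were computed with own code (Python 3.11.15, numpy 2.4.6, pandas 2.3.3, numba 0.67.0), tested on simulated data, and promoters were aligned globally with biopython 1.88. Starts came from GENCODE 44, and RefSeq promoter sequences were matched by symbol for 6 of 6 members. Counts of all genes or all peaks stand beside the members' counts as background, without tests. The 16 columns of −log10 p were not used. The members and gene lists were chosen with earlier results of these data known, and the genes named are the 6 members, the other genes of the window and the fixed lists.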

Additional observations from a re-analysis of the deposited data

How the results depend on the processing

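Of 221 values computed under another setting, 214 stayed within 1.5 times the reported value, the limit used for counts, bases and ratios alike. Many of these were RELB counts of 0, which a stricter q, a fold minimum or single-copy peaks cannot raise. The limit also let pass the RELA peaks of the window without flanks, 9 rather than 13 at TNFα 30 min and 6 rather than 9 at TNFα 6 h. Without the 50 kb flanks, the bases under H3K27ac peaks in the window fell from 33003 to 17994 in vehicle, from 27418 to 16130 and from 35390 to 20451 after 30 min and 6 h TNFα treatment, and from 25570 to 13944 and from 27429 to 15967 after 30 min and 6 h TWEAK treatment, since fewer bases are counted. With a fold enrichment of at least 5 in both lists, FOSL1 overlapped 4 of the RELA sites rather than 7. Within 1000 bp instead of 2000 bp of the summit, an alternative chosen after seeing the data, 5 rather than 3 sites had more H3K27ac bases at TWEAK 30 min than in vehicle, and the cause was not tested. No RELA promoter count moved by over 1.5 times under a stricter q, a fold minimum, single-copy peaks, other promoter widths or canonical starts. No paired analysis was possible because each condition has 1 list with no values per replicate, and no replicate could be left out for the same reason. The unknown depth limits every absent peak to a level under the authors' threshold.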

Other observations

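The 17 other genes annotated in the window include long non-coding RNAs and pseudogenes. Besides ENSG00000287037 and ENSG00000289241, whose starts share the CXCL5 and CXCL2 promoter regions, none had a RELA peak within 1000 bp of a start in any list. UMLILO, a long non-coding RNA upstream of CXCL8, had no peak of any kind there. ENSG00000289530, which lies beside it, had H3K27ac in all 5 lists, between 2.04 and 2.73. PPBPP2 had H3K27ac of 3.12 to 3.43 in 4 lists and no peak at TNFα 30 min.

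Beyond the cluster, EREG, an epidermal growth factor family ligand, had a RELA promoter peak of 8.57 at TNFα 30 min and none at 6 h. AREG, its neighbour and relative, had no RELA peak, and its H3K27ac was 2.72 in vehicle, 3.79 and 2.93 after TNFα, and 3.81 and 3.19 after TWEAK. AFP and AFM, liver plasma protein genes, had no peak of any factor or mark. CXCL10 and CXCL11 differed from the members in that their promoters had no H3K27ac peak in vehicle, while at TNFα 30 min they had 3.28 and 3.20. CXCL11 also had 2.74 at TNFα 6 h and 2.68 at TWEAK 6 h, whereas CXCL10 had no H3K27ac peak in any other list.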
